A study of Mus musculus with 4 samples.

Results

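The genes described here encode 9 chemoattractant receptors of myeloid cells, Cxcr2, Cxcr4, Ccr1, Ccr2, Fpr2, Ptafr, C5ar1, C3ar1 and Ltb4r1. They were chosen by name, with earlier results of these data known, so counts among them are no independent check against all genes. Every probe set of the array that is annotated to exactly 1 of these symbols was taken, which gave 17 of 45101 probe sets and 9 of 18193 genes. Gene expression had been measured in mouse cells on 4 single-colour Affymetrix arrays, 1 for each sorted population. The populations were granulocytes from bone marrow with high granularity and strong Gr-1 staining, haematopoietic progenitor cells (HPC, gate LKS-), long-term repopulating stem cells (LT-HSC, gate CD34-LKS) and short-term repopulating stem cells (ST-HSC, gate CD34+LKS), where LKS stands in this field for lineage-negative cells with c-Kit and Sca-1. HPC and both stem cell populations had also been enriched with c-Kit beads, and the lineage stain of their gate held antibodies to Gr-1 and CD11b, which mark granulocytes, beside those to B220, Ter119 and T cell antigens. The sources used here give neither strain, age and sex of the mice nor the number of animals behind each array. RNA of 50 to 200 cells per population went through 2 rounds of linear amplification, so each signal carries the sampling of few cells.

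Chemoattractant receptors are proteins that cross the cell membrane several times, couple to G proteins of the Gi class and steer leukocytes along gradients of their ligands. Cxcr2 binds the chemokines of the Cxcl1 and Cxcl2 type and draws neutrophils into the blood and into inflamed tissue, whereas Cxcr4 binds Cxcl12 and holds stem cells and maturing neutrophils in the bone marrow. Ccr1 and Ccr2 bind CC chemokines, Ccr2 being best known from inflammatory monocytes. Fpr2 recognizes formyl peptides and other peptide and lipid ligands, C5ar1 and C3ar1 bind the complement fragments C5a and C3a, Ltb4r1 binds leukotriene B4 and Ptafr binds platelet-activating factor.

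Signals are given as deposited, on a linear scale. Signals under 120.1, the median of all values of the 4 arrays, were treated as unmeasured and set to that floor before log2 differences were taken, so a fold against such a signal is a lower bound and is written "at least". A gene with several probe sets is represented by the one with the highest mean log2 signal. The size of a gene in a comparison is its smallest log2 difference against the other arrays where all differences have 1 sign, and 0 otherwise. A size of 4-fold or more was counted. There is 1 array per population, so no difference has a replicate check, no test was possible and no p-value is given. As the only yardstick of error, the difference between the log2 differences of 2 probe sets of a gene had an SD of 1.35 between granulocytes and HPC (3375 genes), 1.32 between granulocytes and LT-HSC (3436 genes), 1.37 between granulocytes and ST-HSC (3365 genes) and 0.89 to 0.95 between the other pairs of arrays. Neighbouring populations in the order of a gene were called separated when they lay at least 2 such SDs apart. The SD holds the error of both probe sets, so this limit is wide for a single log2 difference. Populations that were not separated are therefore not shown to be equal. The yardstick leaves out how far repeated sorts or amplifications would differ.

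The labels of the populations were compared with marker genes. The marker lists were chosen with earlier results of these data known, so the counts are no independent check of the labels. All 10 granulocyte markers, among them S100a8, Ltf and Mmp9, passed 4-fold in granulocytes over each other array, against 2.86% of all genes. Of 9 measured stem and progenitor markers, 7 were lower in granulocytes by that margin, against 5.34% of all genes. The 9 summed to 6921 in granulocytes against 28397 in HPC, 48236 in LT-HSC and 44612 for ST-HSC. On the LT-HSC array, however, 6 of the 10 granulocyte markers were at least 4-fold higher, and 1 was lower by that margin, relative to the ST-HSC array. Of all genes, 1.29% were higher and 0.693% lower there. The summed signal of the 10 markers was 440879 in granulocytes against 1584 in HPC, 23272 in LT-HSC and 3034 for ST-HSC. S100a8 had 57218 in granulocytes against 112.7 in HPC, 6783 in LT-HSC and 144.5 for ST-HSC, so the LT-HSC signal came to 11.9% of the granulocyte signal. Ngp, a secondary granule protein gene, reached 10.1%, whereas Mmp8, Mmp9 and Itgam lay under the floor in LT-HSC. The granulocyte comparison is therefore also given without the LT-HSC array, while the comparison of LT-HSC with ST-HSC rests on it. Eosinophil markers were dim on all arrays, with summed signals of 5 genes of 384 in granulocytes against 407 in HPC, 161 in LT-HSC and 240 for ST-HSC. The 7 basophil and mast cell markers summed to 582 in granulocytes against 5069 in HPC, 5620 in LT-HSC and 4369 for ST-HSC. Most of the stem cell sums came from Gata2, which is also in the stem and progenitor list, and the other 6 summed to 461 in granulocytes against 2675 in HPC, 667 in LT-HSC and 528 for ST-HSC. The 5 measured T and NK cell markers summed to 762 in granulocytes against 2457 in HPC, 948 in LT-HSC and 1572 for ST-HSC.

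Of the 9 receptor genes, 5 exceeded each of the other 3 arrays by at least 4-fold in granulocytes, namely Cxcr2, Ccr1, Fpr2, C5ar1 and Ltb4r1. None was at least 4-fold lower. Over all 18193 genes, 2.86% were called higher and 5.34% lower by the same rule. The median size over the 9 receptors was 4.14 (log2), against 0 over all genes. This median is the size of C5ar1, a lower bound from 1 of 2 probe sets that differ, and it was 2.29 with the floor at the 75th percentile, 2.11 with the median over probe sets and 0.33 with the first probe set by name. The remaining 4 genes, Cxcr4, Ccr2, Ptafr and C3ar1, differed from at least 1 other array by less than 2-fold. All 9 genes gave a signal above the floor in granulocytes, whereas 5 did in HPC, 4 in LT-HSC and 2 on the ST-HSC array. The share of all genes above the floor was 60.8% on the ST-HSC array, 61.3% for LT-HSC, 62.3% for HPC and 63.4% for granulocytes. Taken 1 array at a time, granulocytes over HPC gave 6 receptors higher, the 5 above and Cxcr4, where 4.44% of all genes were higher, and 1 lower, Ccr2, where 8.78% were lower. The log2 difference of Cxcr4 over HPC was 2.04, and it was under 4-fold at 1.40 with scaling to the hybridization controls and at 1.94 with quantile normalization. That of Ccr2 was -2.10, and with the median over its probe sets it was 0.96, of the other sign. Granulocytes over LT-HSC gave the 5 receptors higher (4.38% of all genes) and none lower (9.26%). Granulocytes over ST-HSC gave the 5 and Cxcr4 higher (4.97%) and none lower (9.07%). A lower signal in a bulk population cannot tell fewer cells with the transcript from less transcript per cell.

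**Figure D1:**
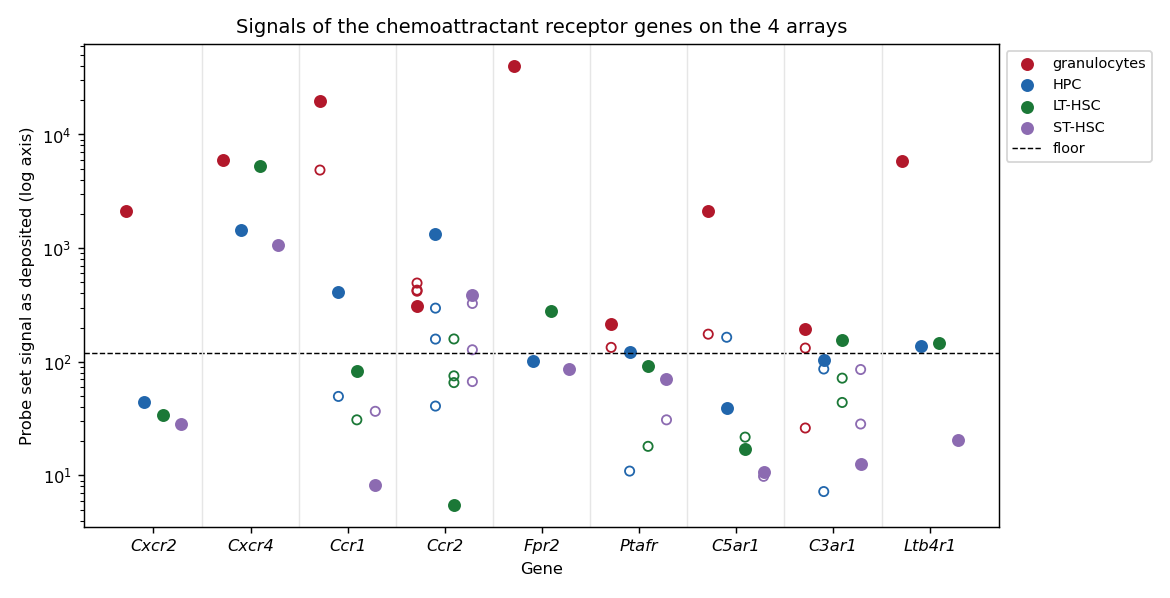
Probe set signals as deposited (vertical axis, log scale) of the 9 receptor genes on the granulocyte, HPC, LT-HSC and ST-HSC arrays; filled points are the probe set that represents the gene, open points its other probe sets, and the dashed line is the floor of 120.1. Fpr2, Ccr1, Ltb4r1, Cxcr2 and the representing probe set of C5ar1 stand far above the other arrays in granulocytes, Cxcr4 is bright in both granulocytes and LT-HSC, and the Ccr2 probe sets scatter.

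Cxcr2, the main receptor of neutrophils for chemokines of the Cxcl1 type, had a signal of 2113 in granulocytes against 43.8 in HPC, 34.3 in LT-HSC and 28.1 for ST-HSC. It was measured in granulocytes alone, and its difference was at least 17.6-fold against each other array. The order of the other 3 populations has no meaning here, since all lie under the floor. Cxcr2 rests on 1 probe set.

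Ccr1, a receptor for Ccl3 and related chemokines, had 19648 in granulocytes against 409 in HPC, 83.3 in LT-HSC and 8.2 for ST-HSC. This is 48.0-fold higher in granulocytes than in HPC and at least 164-fold higher than in LT-HSC and ST-HSC. Its other probe set had 4863 in granulocytes against 49.5 (HPC), 30.8 (LT-HSC) and 36.6 (ST-HSC), at least 40.5-fold apart from each, so both probe sets put granulocytes on top. HPC were the second highest population by the representing probe set, at least 3.41-fold above LT-HSC and ST-HSC. This lower bound, 1.77 in log2, fell short of the limits of 1.78 for LT-HSC and 1.91 for ST-HSC. Since it is a bound, the yardstick cannot tell whether HPC were separated from them. The other probe set was under the floor in HPC.

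Fpr2, a receptor for formyl peptides, had the largest size of the 9 genes. Its signal was 40124 in granulocytes against 102.1 in HPC, 280.8 in LT-HSC and 85.7 for ST-HSC. Granulocytes were 143-fold higher than LT-HSC and at least 334-fold higher than HPC and ST-HSC. LT-HSC was the only other array with Fpr2 above the floor, at 0.70% of the granulocyte signal, on the array that also carried the granulocyte markers named above, and the part of those markers in this value was not tested. Without the LT-HSC array the smallest difference was at least 334-fold. Fpr2 belongs to a family of close relatives in the mouse, and whether its single probe set also detects them was not tested. Fpr-rs4, another member of the family, had 384.7 in granulocytes against 142.8 (HPC), 99.3 (LT-HSC) and 153.5 (ST-HSC), and Fpr-rs3 lay under the floor on every array.

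Ltb4r1, the high-affinity receptor for leukotriene B4, had 5876 in granulocytes against 137 in HPC, 146.7 in LT-HSC and 20.5 for ST-HSC. It was 42.9-fold higher in granulocytes than in HPC, 40.1-fold higher than in LT-HSC and at least 48.9-fold higher than in ST-HSC. The signals of HPC and LT-HSC lay just above the floor, and these 2 populations were not separated from each other. Without the LT-HSC array its smallest difference was 42.9-fold. Ltb4r1 also rests on 1 probe set.

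C5ar1, the receptor for the complement fragment C5a, gave different answers with its 2 probe sets. The representing one had 2112 in granulocytes against 38.8 (HPC), 17.2 (LT-HSC) and 10.6 (ST-HSC), which is at least 17.6-fold. The other had 174.8 in granulocytes against 164.2 in HPC, 21.7 in LT-HSC and 9.8 for ST-HSC, so granulocytes exceeded HPC by 1.06-fold and both stem cell arrays by at least 1.46-fold. The call of C5ar1 as higher in granulocytes therefore rests on 1 of 2 probe sets, and with the first probe set by name the log2 size was 0.09. With that choice 4 of the 9 receptors were called.

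**Figure D2:**
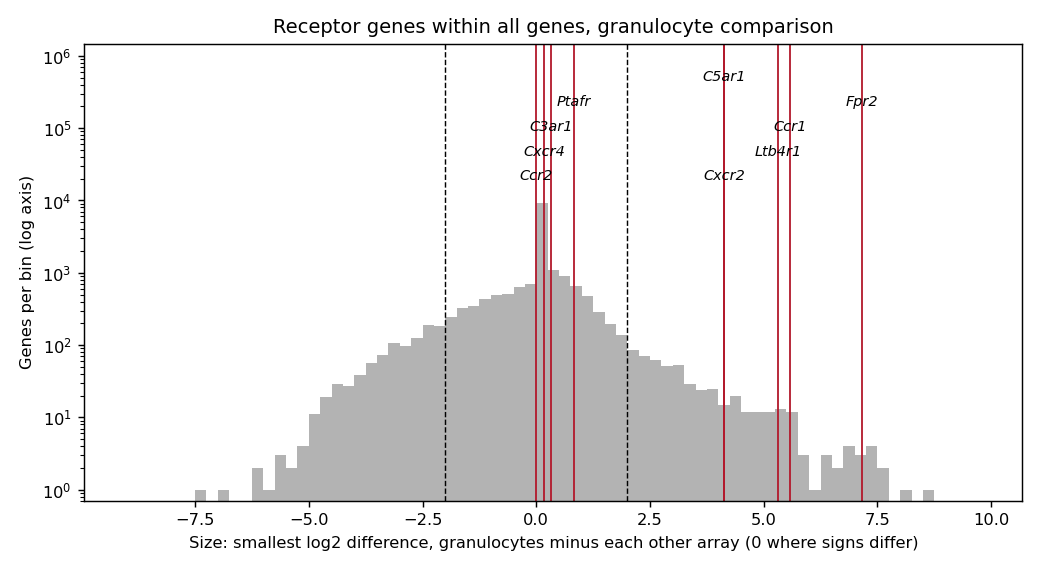
Number of genes (vertical axis, log scale) by size in the granulocyte comparison, in log2 units and bins of 0.25; red lines mark the 9 receptor genes and dashed lines the 4-fold threshold. Ccr2, Cxcr4, C3ar1 and Ptafr lie in the bulk of genes near 0, while Cxcr2 and C5ar1 (4.14 each), Ltb4r1 (5.32), Ccr1 (5.59) and Fpr2 (7.16) lie in the sparse upper tail.

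Ptafr and C3ar1 were dim everywhere. Ptafr, the receptor for platelet-activating factor, had 216.2 in granulocytes against 121.9 in HPC, 91.8 in LT-HSC and 70.3 for ST-HSC, and its other probe set had 133.7 in granulocytes and 10.9 to 30.8 elsewhere. The difference between granulocytes and HPC was 1.77-fold, which the yardstick did not separate. C3ar1, the receptor for the complement fragment C3a, had 194.3 in granulocytes against 104.1 in HPC, 154.5 in LT-HSC and 12.5 for ST-HSC by its representing probe set. Granulocytes exceeded LT-HSC by 1.26-fold, and no neighbours in the order of C3ar1 were separated, though LT-HSC over HPC is a lower bound since HPC lay under the floor. The other probe sets of C3ar1 had 131.9 and 26.1 in granulocytes, and all their signals on the other 3 arrays lay under the floor.

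Cxcr4 was the only one of the 9 genes above the floor on all 4 arrays by its representing probe set. This receptor for Cxcl12 had a signal of 5914 in granulocytes against 1443 in HPC, 5240 in LT-HSC and 1057 for ST-HSC. Granulocytes and LT-HSC were 1.13-fold apart and not separated, and HPC and ST-HSC were 1.36-fold apart and not separated, whereas LT-HSC and HPC, the neighbours between these pairs, were 3.63-fold apart and separated, narrowly, with a log2 difference of HPC over LT-HSC of -1.86 against a limit of 1.78. Cxcr4 has 1 probe set, with signals above every floor tried. Of 9 alternatives, therefore, only the scalings and the one without a floor could change its differences. Over all 9 the log2 difference of HPC over LT-HSC ran from -2.01 to -1.66, and under the common 75th percentile, at -1.66, it was below the limit. Over 9 alternatives the log2 difference of granulocytes over LT-HSC ran from -0.41 to 0.51, and it was below 0 under scaling to the hybridization controls and, at -0.07, under quantile normalization. Granulocytes were 4.10-fold higher than HPC and 5.59-fold higher than ST-HSC. Without the LT-HSC array, an alternative chosen after the data had been seen, Cxcr4 reached the 4-fold threshold in the granulocyte comparison (log2 size 2.04, its difference over HPC, which passed 4-fold under neither of the scalings named above) and 6 of 9 receptors were called higher, against 3.41% of all genes, and none lower, against 6.44%.

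Between LT-HSC and ST-HSC, Cxcr4 was the only receptor of the 9 at least 4-fold apart, 4.96-fold higher in LT-HSC (log2 difference 2.31). Of all genes, 1.29% were higher and 0.693% lower in LT-HSC than in ST-HSC by that margin. Over 9 alternatives of floor, scaling and choice of probe set, the log2 difference of Cxcr4 ran from 2.19 to 2.50. Here too the other floors and the choices of probe set could not change it. Summed markers of some other cells moved with Cxcr4. The 8 measured B-lineage markers, which are genes of cells that also use Cxcr4, had summed signals of 1755 in granulocytes against 7180 in HPC, 14346 in LT-HSC and 678 for ST-HSC, and 4 of the 8 were at least 4-fold higher in LT-HSC than in ST-HSC. Vpreb1, a gene of the surrogate light chain of pre-B cells, had 4815 in LT-HSC and 15.0 in ST-HSC. Of these markers 7 were above the floor in LT-HSC and 1 in ST-HSC, against 61.3% and 60.8% of all genes. The granulocyte markers, at 23272 in LT-HSC and 3034 in ST-HSC, moved the same way as a sum. Singly, 6 of the 10 were at least 4-fold higher in LT-HSC and 3 passed in neither direction. Csf3r was lower by that margin, at 550.7 in LT-HSC and 2404 in ST-HSC. The part of either cell type in the Cxcr4 difference was not tested.

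**Figure D3:**
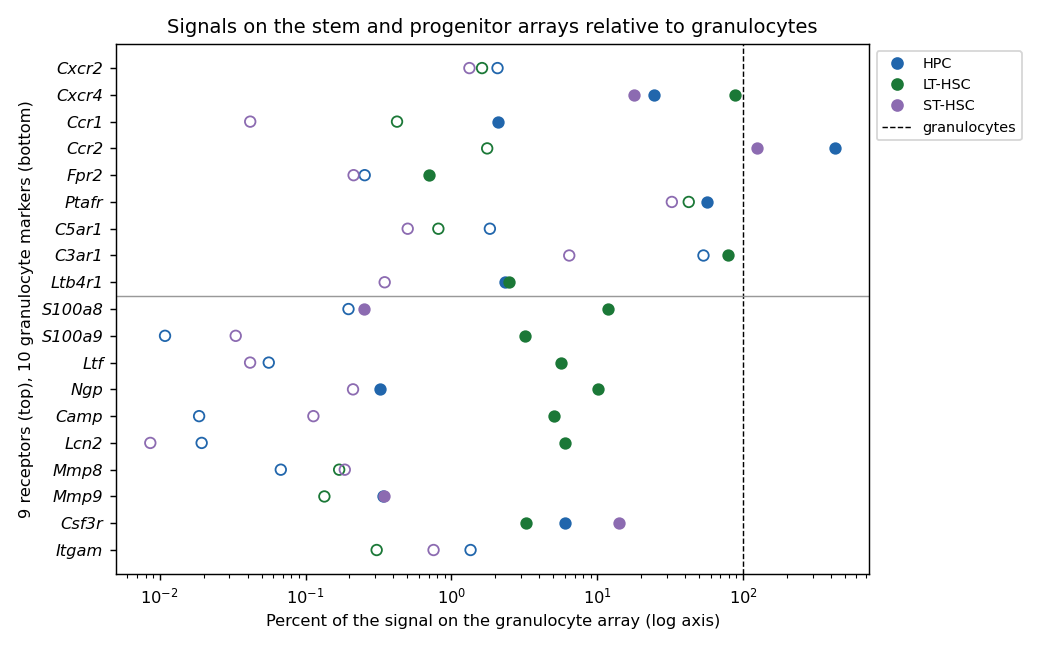
Signals of the HPC, LT-HSC and ST-HSC arrays as a percent of the granulocyte signal of the same probe set (horizontal axis, log scale) for the 9 receptors and the 10 granulocyte markers; filled points lie above the floor on that array, open points under it, and the dashed line is the granulocyte signal. Cxcr4 reached 88.6% in LT-HSC, and Fpr2 and Ltb4r1 came to 0.70% and 2.50% there. C3ar1, which was dim on every array, came to 79.5%. Ccr1, Cxcr2, C5ar1, Ccr2 and Ptafr were under the floor in LT-HSC, so their percents were not measured. Of the 10 granulocyte markers 7 lay between 3.19% and 11.9% in LT-HSC, among them Csf3r, which was higher in ST-HSC (14.2%). Mmp8, Mmp9 and Itgam lay under the floor in LT-HSC, so their percents were not measured either.

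Ccr2 had its highest signal in HPC by the representing probe set. The signals were 312.4 in granulocytes against 1337 in HPC, 5.5 in LT-HSC and 387.7 for ST-HSC. Granulocytes were 4.28-fold lower than HPC, and HPC were at least 11.1-fold higher than LT-HSC and 3.45-fold higher than ST-HSC. In the comparison of HPC with LT-HSC alone, Ccr2 was the only receptor of the 9 at least 4-fold higher, as were 0.572% of all genes, and none was lower, against 1.45%. The log2 difference of Ccr2 there was 3.48, and it was under 4-fold at 1.63 with the floor at the 75th percentile and at 0.85 with the median over probe sets. Between HPC and ST-HSC alone none of the 9 passed in either direction, against 1.12% of genes higher and 1.08% lower. No neighbours in the order HPC, ST-HSC, granulocytes, LT-HSC were separated by the yardstick, but LT-HSC lay under the floor, so granulocytes over LT-HSC is a lower bound.

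The other 3 probe sets of Ccr2 did not put HPC on top. The first of them had 426.6 in granulocytes against 40.7 in HPC, 75.1 in LT-HSC and 325.8 for ST-HSC. The second had 417.6 in granulocytes against 158.2 (HPC), 65.5 (LT-HSC) and 66.9 (ST-HSC). The third had 492.6 in granulocytes against 296.3 in HPC, 158.6 in LT-HSC and 127.4 for ST-HSC. Granulocytes had the highest signal in all 3, so the highest signal in HPC was seen with 1 of 4 probe sets. LT-HSC were under the floor with 3 of the 4. Monocyte and macrophage markers, which mark the cells best known for Ccr2, were brightest in HPC as a sum of 11 genes, at 21955 in granulocytes against 32602 in HPC, 5709 in LT-HSC and 6987 for ST-HSC. The HPC sum came mostly from Csf1r (11928) and Irf8 (10505). Singly, only Irf8, F13a1, Ms4a6c and Ly86 were highest in HPC. Csf1r, Adgre1, Adgre4, Cd68 and Treml4 were highest in granulocytes, and Klf4 and Mrc1 in ST-HSC. Of the 11 markers, 3 were at least 4-fold higher in HPC than in both stem cell populations, against 0.275% of all genes. Above the floor were 10 of the 11 in granulocytes, 9 each in HPC and ST-HSC, and 8 in LT-HSC, against 60.8% to 63.4% of all genes. Csf1r, the growth factor receptor of the macrophage lineage, had 13089 in granulocytes against 11928 in HPC, 209.8 in LT-HSC and 522.8 for ST-HSC. The part of these cells in the Ccr2 and Ccr1 signals was not tested.

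Between HPC and both stem cell arrays, none of the 9 receptors passed 4-fold in either direction, as against 0.275% of all genes higher and 0.346% lower. Ccr2 and Ccr1 came nearest, with sizes of 3.45-fold and at least 3.41-fold, and both passed 4-fold when the arrays were scaled to the hybridization controls. Ccr1 and Ccr2 lie on chromosome 9 with 2 annotated genes between them, Ccr1l1 and Ccr3. Of these, Ccr3, the eotaxin receptor of eosinophils, lay under the floor on all 4 arrays, with 36.6 in granulocytes and 4.8 to 11.5 on the others.

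The receptors that were higher together in granulocytes are shown by the bases before their annotated starts, so that the letters known from myeloid gene control can be seen in place. All 9 genes were found in the RefSeq promoter table of the mouse build GRCm38.p6. The 250 bases before the start were searched on both strands for GAGGAAG (a PU.1 site), TTGCNNAA (a C/EBP site) and TGTGGT (a RUNX site). Capitals mark the matches, and no matches overlapped.
Cxcr2 (chr1:74153744-74153993, plus strand): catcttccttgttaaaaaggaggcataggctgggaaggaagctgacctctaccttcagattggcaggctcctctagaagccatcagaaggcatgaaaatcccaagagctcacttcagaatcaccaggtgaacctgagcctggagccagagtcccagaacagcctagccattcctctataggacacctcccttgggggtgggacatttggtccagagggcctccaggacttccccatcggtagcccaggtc
Ccr1 (chr9:123968693-123968942, minus strand): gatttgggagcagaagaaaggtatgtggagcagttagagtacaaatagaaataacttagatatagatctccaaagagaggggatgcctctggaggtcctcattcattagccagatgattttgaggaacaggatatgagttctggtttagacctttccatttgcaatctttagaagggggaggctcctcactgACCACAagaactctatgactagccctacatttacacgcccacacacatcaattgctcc
Fpr2 (chr17:17887574-17887823, plus strand): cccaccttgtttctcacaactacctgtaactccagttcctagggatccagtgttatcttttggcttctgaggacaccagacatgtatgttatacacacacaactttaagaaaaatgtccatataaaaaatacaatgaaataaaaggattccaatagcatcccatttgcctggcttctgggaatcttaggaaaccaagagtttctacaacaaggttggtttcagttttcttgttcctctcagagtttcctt
C5ar1 (chr7:16259339-16259588, minus strand): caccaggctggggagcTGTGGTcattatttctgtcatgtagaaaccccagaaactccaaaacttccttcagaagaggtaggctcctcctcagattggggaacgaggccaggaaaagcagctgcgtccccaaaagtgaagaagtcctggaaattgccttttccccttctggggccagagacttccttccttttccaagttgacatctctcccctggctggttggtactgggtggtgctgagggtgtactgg
Ltb4r1 (chr14:55765712-55765961, plus strand): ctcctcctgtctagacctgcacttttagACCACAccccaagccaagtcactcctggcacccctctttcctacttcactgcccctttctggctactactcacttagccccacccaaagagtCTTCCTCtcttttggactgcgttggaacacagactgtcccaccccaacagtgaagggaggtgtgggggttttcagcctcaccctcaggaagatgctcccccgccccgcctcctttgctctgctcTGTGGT
Among the 5 genes, Ltb4r1 held the PU.1 letters, 130 to 124 bases before the start, and the RUNX letters 222 to 217 and 6 to 1 bases before it. C5ar1 held the RUNX letters 234 to 229 bases before the start and Ccr1 58 to 53 bases before it. Cxcr2 and Fpr2 held none of the 3 motifs in this window, nor did Cxcr4, Ccr2, Ptafr and C3ar1, and no receptor gene held the C/EBP letters. Of 32817 annotated mouse promoters, 10.6% held the PU.1 letters, 9.57% the C/EBP letters and 14.0% the RUNX letters. A match describes the letters only and shows no binding.

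The pathway lists from here on were also chosen with earlier results of these data known, so their counts are no independent check against all genes. Among other chemoattractant and related receptors, 1 of 23 measured genes was at least 4-fold higher in granulocytes and none lower, against 2.86% and 5.34% of all genes, with a median size of 0. The gene was Ccrl2, an atypical receptor that binds chemerin, with 21326 in granulocytes against 143.2 in HPC, 489.8 in LT-HSC and 805.9 for ST-HSC, 26.5-fold higher than on the nearest array. Of the 23 genes, 5 lay under the floor on every array. No gene of this list passed 4-fold in HPC against both stem cell arrays.

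Most genes of the machinery that carries the receptors' signal did not pass the threshold, and neither did most of all genes. Of 26 measured genes of Gi signalling, phosphoinositide 3-kinase gamma and the Rac pathway, 2 were at least 4-fold higher in granulocytes and none lower, against 2.86% and 5.34% of all genes, with a median size of 0.40. Fgr, a Src-family kinase of phagocytes, had 5849 in granulocytes and 152.9 to 278.8 on the other arrays, 21.0-fold above the nearest, and its other probe set was also higher in granulocytes by a log2 difference of at least 4.82. Rac2, a GTPase of blood cells that drives actin assembly, had 22564 in granulocytes and 2020 to 3817 on the others, 5.91-fold above the nearest, while its dimmer probe set gave a log2 difference of 0.95 to 1.34. Gnai2, the main Gi subunit of leukocytes, had 26220 in granulocytes and 9799 to 11836 elsewhere, 2.22-fold. The dimmer probe set of Gnai2 had 5875 in granulocytes against 721.1 in HPC, 1255 in LT-HSC and 512 for ST-HSC, a log2 difference of 2.23 or more, so Gnai2 passed 4-fold with 1 of 2 probe sets. Gnai3 had 11619 in granulocytes and 7419 to 10991 elsewhere, 1.06-fold. Pik3cg, the catalytic subunit of phosphoinositide 3-kinase gamma, had 1634 in granulocytes and 1298 to 1778 elsewhere, while its other probe set was higher in granulocytes by log2 differences of 0.90 to 1.66. Its partner Pik3r5 had 1935 in granulocytes and 337.5 to 605.2 elsewhere, 3.20-fold. Under the scaling to hybridization controls 1 gene of the list was called, and with the first probe set by name 4 were. At a 2-fold threshold 7 were higher and 1 lower, where 1619 and 2319 of all 18193 genes were.

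Of 15 measured genes for receptor kinases, arrestins and Rgs proteins, 2 passed 4-fold as higher in granulocytes and 1 as lower, against 2.86% and 5.34% of all genes, with a median size of 0.55. Rgs14, which speeds GTP hydrolysis by Gi subunits, had 3565 in granulocytes and 326.8 to 391.5 elsewhere, 9.11-fold. Arrb2, an arrestin that uncouples phosphorylated receptors, had 17532 in granulocytes and 1181 to 2234 elsewhere, 7.85-fold, and its other probe set gave log2 differences of 3.46 to 4.27. Grk3, a kinase of activated receptors, had 52.4 in granulocytes against 888 in HPC, 1112 in LT-HSC and 658.2 for ST-HSC, at least 5.48-fold lower in granulocytes. This call of Grk3 was absent with the floor at the 75th percentile, with the median over its probe sets and without probe sets that end in _x_at or _s_at. Grk6, a kinase that acts on Cxcr4, had 13486 in granulocytes and 2975 to 3719 elsewhere, 3.63-fold. Another Grk6 probe set had 3915 in granulocytes and 485.2 to 647 elsewhere, with log2 differences of 2.60 to 3.01, and the dimmest gave 0.69 to 0.94, so Grk6 passed 4-fold with 1 of 3 probe sets.

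Among the ligands of the receptors and the enzymes that make or break them, 9 of 30 measured genes were at least 4-fold higher in granulocytes and none lower, against 2.86% and 5.34% of all genes, with a median size of 0.24. The largest was Ccl6, a chemokine of myeloid cells, with 19019 in granulocytes against 419.9 in HPC, 16.4 in LT-HSC and 17.7 for ST-HSC, 45.3-fold above HPC. Alox5, which makes the precursor of leukotriene B4, had 9121 in granulocytes against 213.7 in HPC, 30.0 in LT-HSC and 37.9 for ST-HSC, 42.7-fold above HPC. Pla2g7, which degrades platelet-activating factor, had 3425 in granulocytes and 7.7 to 14.8 elsewhere, at least 28.5-fold. Lpcat2, which makes platelet-activating factor, had 21653 in granulocytes and 284.1 to 828.1 elsewhere, 26.1-fold. Cxcl2, a ligand of Cxcr2, had 34434 in granulocytes against 539.8 in HPC, 554.3 in LT-HSC and 2348 for ST-HSC, 14.7-fold. The other 4 were Camp (19.7-fold), which is also in the granulocyte marker list, Cxcl1 (6.94-fold), Anxa1 (5.19-fold), whose product acts on Fpr2, and Alox5ap (4.11-fold). Cxcl12, the ligand of Cxcr4, lay under the floor in granulocytes, HPC and LT-HSC and had 244 in ST-HSC. Between HPC and both stem cell arrays, 1 of the 30 was called higher, against 0.275% of all genes, namely Saa3, a serum amyloid gene whose family acts on Fpr2, with 887.2 in HPC, 92.4 in LT-HSC and 142.1 on the ST-HSC array, 6.24-fold.

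**Figure D4:**
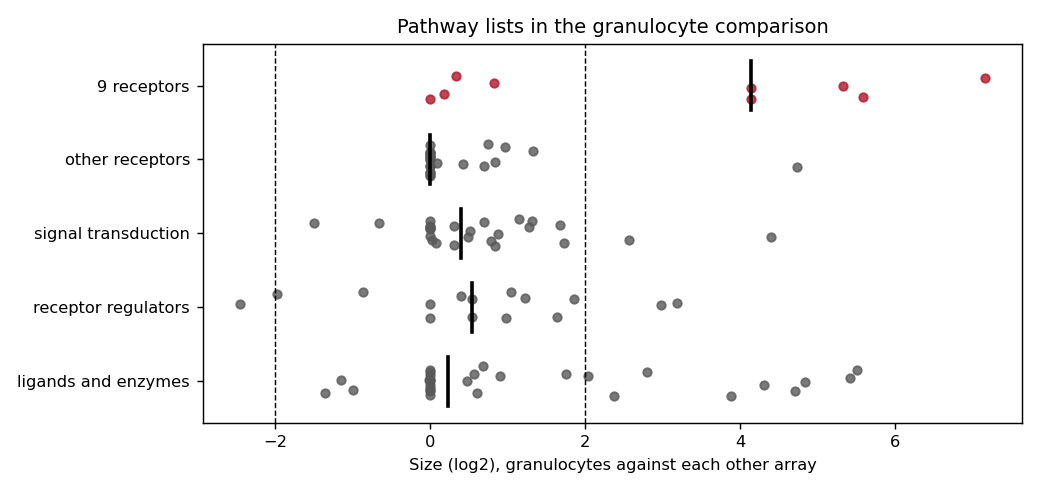
Sizes in the granulocyte comparison (horizontal axis, log2; dashed lines at 4-fold) of the 9 receptors (top, red) and of the measured genes of 4 pathway lists; each point is a gene, spread vertically only to be seen, and the black bar is the median. The medians were 4.14 for the receptors, 0 for other receptors, 0.40 for signal transduction, 0.55 for regulators and 0.24 for ligands and enzymes.

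The genes with the pattern most like each receptor were found by the distance between the 4 log2 values, each gene centred on its own mean, over 4 arrays and 8600 candidate genes. The 3 nearest genes to Fpr2 were G0s2 (distance 0.16), Cd177 (0.34), a surface protein of neutrophils, and Mcemp1 (0.44). Ccr1 lay nearest to Ccl6 (0.06), a chemokine gene of the ligand list, with Adam8 (0.56) and Hsd11b1 (0.69) next. Ccr1 and Ccl6 were both at the floor in LT-HSC and ST-HSC, so their distance rests on the granulocyte and HPC signals. In HPC the other probe set of each lay under the floor. Ltb4r1 lay nearest to Cd300lf (0.12), Sgms2 (0.20) and Prom1 (0.21). Cxcr2 and C5ar1, which were above the floor in granulocytes alone, had the same 3 neighbours, Marchf1, Abca13 and Ntng2 (distances 0.02 to 0.09). All these genes were at the floor on the other 3 arrays, so their likeness reflects only near-equal granulocyte signals of different probe sets.

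The gene with the pattern most like Cxcr4 was Trp53inp1 (0.17), a target gene of p53, which had 10163 in granulocytes against 2607 in HPC, 8282 in LT-HSC and 1956 for ST-HSC. Tcta (0.41) and Rab23 (0.48) were next. Ccr2 had no close neighbour, the nearest being Stom (0.76), Ptger2 (0.86) and Rmdn1 (0.87). With only 4 arrays, many genes must have like patterns, and the likeness describes these arrays alone. Ptafr and C3ar1 were too dim to be compared in this way.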

How the data were processed

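The deposited values are intensity on a linear scale, 1 per probe set. Their 2% trimmed mean was 500.00 on every array, so the authors had brought them to a common scale, and they were used as deposited. The sources used here name no summary software and give no detection calls. Per the labels, 50 or 100 cells at a time were packed into empty zonae pellucidae, and granulocyte purity was 99.4%. Of 45101 probe sets, 64 controls were left out. GEO's platform annotation gave 1 symbol for 34945, several for 932 and none for 9160 of the rest. By Entrez number 34741 were found in RefSeq (GRCm38.p6), which changed no symbol. Floor, sizes and the 4-fold threshold are as described with the results. Log2 differences and folds were computed from the deposited intensity.

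The receptors, the 4 pathway lists and 7 marker lists were chosen with earlier results of these data known, and the lists and alternatives were then fixed. Named were all 9 receptors and, per pathway list, up to 3 genes in each direction of the granulocyte comparison and 2 of the HPC comparison that passed 4-fold with the largest size. Like-pattern genes had to reach the 75th percentile of the array where they were highest. S100a8, Ngp, the other single marker genes, Ccr3, Fpr-rs3, Fpr-rs4, Gnai2, Gnai3, Pik3cg, Pik3r5, Gata2, Grk6, Lpcat2, Cxcl2, Camp, Cxcl1, Anxa1, Alox5ap, Cxcl12 and the genes under other observations were named after their values had been seen. Between 48.7% and 52.5% of probe sets lay above the floor on each array, and precision is limited by how few arrays there are. Alternatives changed the floor, the scaling, the choice of probe set, the threshold and the arrays compared. The procedure was also run on simulated data, with large changes in genes far above the floor and noise smaller than the yardstick. That run cannot show how the procedure does with signals near the floor or with the error of these arrays. The work ran in Python 3.11.15 with matplotlib 3.10.9 for the plots, scipy 1.17.1, pandas 2.3.3 and numpy 2.4.6. Protein sequences were not used here.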

Additional observations from a re-analysis of the deposited data

How the results depend on the processing

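The count of 5 receptors at least 4-fold higher in granulocytes was 4 to 6 over 13 alternatives, and none was 4-fold lower in any. It was 4 with the first probe set by name, which dropped C5ar1, and 6 without the LT-HSC array, which added Cxcr4. Over 11 alternatives the log2 size of Fpr2 ran from 6.54 to 8.38, of Ccr1 from 4.95 to 6.76, of Ltb4r1 from 3.77 to 5.56 and of Cxcr2 from 2.29 to 5.59. The median size over the receptors was 2.29 with the floor at the 75th percentile, 2.11 with the median over probe sets and 0.33 with the first probe set by name. Receptors called higher in HPC than in both stem cell populations numbered 1 with the floor at the 25th percentile (Ccr1), 2 under hybridization control scaling and 2 at a 2-fold threshold (Ccr1 and Ccr2 each time) and 1 against the mean of the stem cell arrays (Ccr2). Between LT-HSC and ST-HSC, lowering the floor to the 25th percentile gave 4 receptors apart (Cxcr4, C3ar1, Ltb4r1 and Ccr2), against 3 without a floor (log2 of the value plus 32), 3 at 2-fold and 0 at 8-fold. For the HPC and the LT-HSC comparison, the share of all genes called was not recorded under these alternatives. These receptor counts therefore cannot be set against all genes. Over all genes, 1619 were higher and 2319 lower in granulocytes at 2-fold, and 251 higher and 373 lower at 8-fold. Lower genes numbered 405 with the floor at the 75th percentile, 525 with the median over probe sets and 1489 against the mean of the other arrays. Scaling to 18 hybridization controls gave 356 higher and 1402 lower genes (79.7% lower, against 65.1% as reported). It put the median log2 difference of genes above the floor on all arrays at -0.57, against -0.13 as deposited. The log2 difference of Ccr2 in granulocytes over HPC was 0.96 with the median over probe sets, against -2.10 as reported. The causes were not tested. No paired analysis was possible because each population has 1 array. Signals near the floor limit Ptafr, C3ar1 and Ccr2, and Cxcr2, Cxcr4, Fpr2 and Ltb4r1 have 1 probe set each, so alternatives of probe set choice could not change them.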

Other observations

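Further genes of the lists differed between LT-HSC and ST-HSC, and all named here were chosen after their values had been seen. Of all genes, 1.29% were at least 4-fold higher and 0.693% lower in LT-HSC. Of the 23 other receptors, 1 was higher by that margin and none lower. It was Ccr9, a chemokine receptor of early lymphoid cells, with 1529 in LT-HSC and 326.3 in ST-HSC by a probe set with the suffix _x_at. A different Ccr9 probe set had 514 in LT-HSC and 135.5 in ST-HSC. Of the 26 signal transduction genes, 1 was called higher, Gnai1, and none lower. Gnai1, a Gi subunit gene, had 1306 in LT-HSC and 5.8 in ST-HSC, at least 10.9-fold higher. Among its other probe sets one had 342.2 in LT-HSC and 81.3 in ST-HSC and the other lay under the floor. Of the 30 ligands and enzymes, 2 were called higher, Ccl5 and Camp, and 1 lower, Cxcl2. Ccl5, a ligand of Ccr1, had 3202 in LT-HSC and 114.3 in ST-HSC, at least 26.7-fold higher. In the other direction Cxcl2 was lower in LT-HSC, at 554.3 against 2348 in ST-HSC.

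Some ligands of Ccr1 were bright on every array. Ccl3 had 14747 in granulocytes against 9689 in HPC, 3965 in LT-HSC and 6386 for ST-HSC, and Ccl9 had 898.9 in granulocytes against 6860 in HPC, 1991 in LT-HSC and 1793 for ST-HSC. A second probe set of Ccl9 lay near the floor on all arrays, at 128.1 in granulocytes and 94.0 to 176 elsewhere.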
